A study of Arabidopsis thaliana with 24 samples.

Results

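The genes described here are the 42 nuclear genes of Arabidopsis thaliana that encode the light-harvesting antenna and the nuclear-encoded subunits of photosystems I and II, out of 32833 genes in the count table. They were chosen by locus from their annotated products, not by their values, though with earlier results of these data known. They are 6 antenna genes of photosystem I (LHCA1 to LHCA6), 14 antenna genes of photosystem II (LHCB1.1 to LHCB6), 10 photosystem II subunits (PSBO1 to PSBY) and 12 photosystem I subunits (PSAD1 to PSAO). All 42 passed the filter on low counts and were among the 20038 genes tested. Their counts per library lay between 536 for the weakest and 371328 for the strongest, and together they took between 11.4% and 14.8% of all counts.

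RNA sequencing was done on total RNA from wild-type rosettes in 6 groups of 4 libraries, 24 in all. Seed had been treated with water (H2O, called not primed here) or with methyl jasmonate (called primed). Plants of each kind were uninfested controls, or had carried the spider mite Tetranychus urticae, which empties leaf cells, or caterpillars of Pieris brassicae, which chew leaf tissue, for 24 hours. The series addresses how the seed treatment balances growth against defence, and how far responses depend on the pest. The replicates are labelled as biological, without saying whether each was a plant or a pool, so that the spread behind each p-value is that between these samples alone.

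In the thylakoid membrane, chlorophyll-binding LHCB proteins pass light energy to photosystem II, which oxidises water, and LHCA proteins pass it to photosystem I, which reduces ferredoxin. PSBO, PSBP and PSBQ proteins cover the water-oxidising site on the lumen side, PSBS sets off the harmless release of excess energy as heat, and PSAD and PSAE proteins form the ferredoxin docking side of photosystem I. The reaction centre proteins themselves are encoded in the chloroplast, and several of the nuclear subunits exist as 2 or more gene copies.

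Total counts were between 15852109 and 27986799 per library. The rosette label held against the green leaf genes, of which RBCS1A lay between 6778 and 13098 FPKM (fragment counts scaled by gene length and library) in every library, while the root hair genes COBL9 and EXPA7 and the senescence gene SAG12 were too low to be tested. Among the not-primed controls, replicates 1 and 2 stood apart from replicates 3 and 4 for several of the genes described here, and the counts of calls against these controls are also given without each pair. In bulk rosettes, fewer green cells and less RNA per cell cannot be told apart. The annotated genome places LHCB1.4 next to LHCB1.5 on opposite strands, LHCB2.2 next to LHCB2.1, and LHCB1.1 between LHCB1.2 and LHCB1.3.

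The 250 bases upstream of the annotated start are shown for LHCB1.4 and LHCB2.3, the copies whose levels varied most between groups within their families, each followed by another copy of the same family. Sequences and positions come from RefSeq, build TAIR10.1, and run 5′ to 3′ on the strand of the gene. The count files carry no positions. Capitals mark the G-box (CACGTG), the I-box (GATAAG), the CCA1-binding site (AAAAATCT), the CCAAT box (CCAAT) and the TATA box (TATAAA), each searched on both strands.
LHCB1.4, chr2:14524357-14524606, plus strand: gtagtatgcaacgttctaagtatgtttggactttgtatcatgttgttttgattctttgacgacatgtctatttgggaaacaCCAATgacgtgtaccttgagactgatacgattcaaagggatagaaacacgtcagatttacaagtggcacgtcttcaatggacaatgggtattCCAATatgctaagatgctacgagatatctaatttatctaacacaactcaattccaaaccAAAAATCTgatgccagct
LHCB1.5, chr2:14523569-14523818, minus strand: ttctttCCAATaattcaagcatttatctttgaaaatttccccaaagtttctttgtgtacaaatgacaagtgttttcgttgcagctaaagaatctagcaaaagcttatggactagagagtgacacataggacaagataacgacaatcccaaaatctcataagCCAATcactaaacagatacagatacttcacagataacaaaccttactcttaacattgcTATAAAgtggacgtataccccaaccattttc
LHCB2.3, chr3:10255656-10255905, plus strand: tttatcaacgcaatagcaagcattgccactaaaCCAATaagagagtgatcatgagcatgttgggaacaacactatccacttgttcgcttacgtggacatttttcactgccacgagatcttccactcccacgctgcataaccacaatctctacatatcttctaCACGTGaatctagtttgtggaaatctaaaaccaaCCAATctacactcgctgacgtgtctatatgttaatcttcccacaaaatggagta
LHCB2.1, chr2:1824481-1824730, minus strand: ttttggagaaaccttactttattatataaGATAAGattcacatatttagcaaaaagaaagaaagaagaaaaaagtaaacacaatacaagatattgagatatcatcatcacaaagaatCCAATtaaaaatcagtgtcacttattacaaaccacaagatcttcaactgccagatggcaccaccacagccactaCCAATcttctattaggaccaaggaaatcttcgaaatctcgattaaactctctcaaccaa

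The upstream windows of LHCB1.4 and LHCB1.5 each held 2 CCAAT boxes, and LHCB1.4 also held 1 CCA1-binding site where LHCB1.5 held a TATA box. LHCB2.3 held a G-box and LHCB2.1 an I-box. Over the 42 genes, CCAAT boxes occurred in 27 windows (64.3%) against 46.0% of all 27437 windows of that length. They were unevenly spread among the classes, in 13 of 14 LHCB windows, 5 of 6 LHCA windows, 7 of 12 photosystem I windows and 2 of 10 photosystem II windows. The G-box occurred in 8 of 42 (19.0%, against 6.49% of all windows), the I-box in 9 (21.4%, against 12.3%), the CCA1-binding site in 5 (11.9%, against 6.69%), the evening element AAAATATCT in 1 (2.38%, against 2.36%) and the TATA box in 19 (45.2%, against 47.4%). A match describes the letters only, and neither of the CCA1-binding site and the evening element contains the other.

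Levels per length spanned a wide range. LHCB1.3, a main trimer protein of the photosystem II antenna, was highest at a mean of 11004 FPKM and ranked first or second among all genes in every library. LHCB1.5 followed at 8546 FPKM, and then PSBR, a small photosystem II protein, at 5449 FPKM. In every library 6 of the 42 genes were among the 10 highest of all genes and 35 were among the 100 highest. The lowest were LHCA6 at 133 FPKM, LHCA5 at 132 FPKM and LHCB4.3, a minor antenna gene, at 34.2 FPKM. LHCA5 and LHCA6 overlapped in their ranges (102 to 164 and 94.9 to 179 FPKM), so that their order was within the spread. The level that varied most between groups was that of LHCB1.4, whose highest group mean was 2.38 times its lowest, followed by LHCB4.3 (2.27) and LHCB2.3 (1.86). PSBW and PSAE2 varied least, by a factor of 1.13 each.

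Most of these genes were lower under mites, by small amounts. In not-primed plants 34 of 42 fell and 0 rose (edgeR quasi-likelihood test, Benjamini-Hochberg adjusted p under 0.05), where 24.9% of all tested genes fell and 26.5% rose. The median log2 fold change of the 42 genes was −0.22, against 0.01 over all tested genes. All 6 LHCA genes, 10 of 14 LHCB genes, 8 of 10 photosystem II subunits and 10 of 12 photosystem I subunits fell. Class medians were −0.17 for LHCA, −0.18 for LHCB, −0.30 for photosystem II and −0.22 for photosystem I. In primed plants 25 of 42 fell and 0 rose, where 23.5% of all tested genes fell and 22.3% rose, and the median was −0.15. All 25 were among the 34 of the not-primed plants (73.5% of the 34). Without not-primed control replicates 1 and 2 the not-primed count was 26, and without replicates 3 and 4 it was 35, all lower. Leaving out replicate 2 or 3 of the primed mite group gave 16 in primed plants. The smaller count is not shown to be a smaller response, as given with the interactions.

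**Figure D1:**
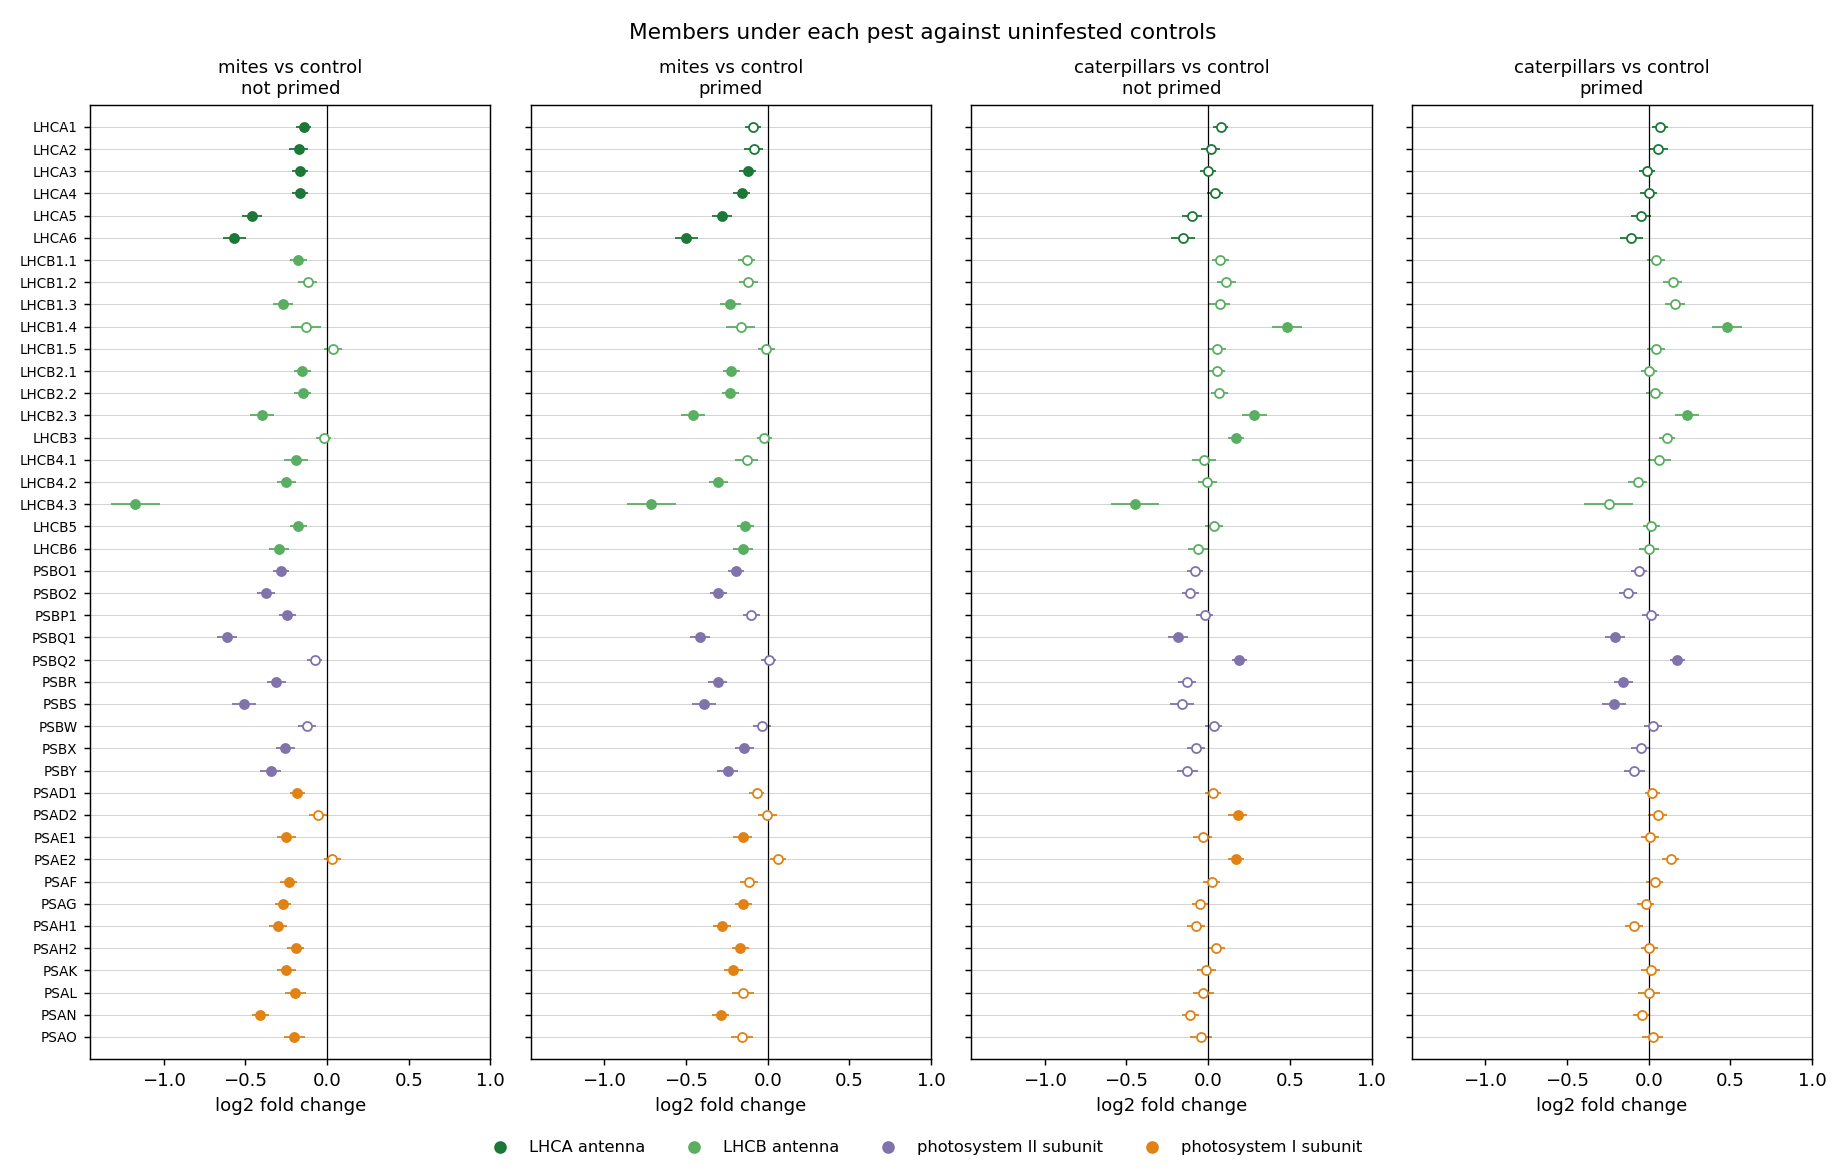
Log2 fold changes under each pest against uninfested controls (x axis) for the 42 genes (y axis), by class; bars are standard errors (n = 4 libraries a group), and filled points passed the adjusted p. Nearly all points lie left of 0 under mites, where 34 and 25 passed, and scatter around 0 under caterpillars, where 8 and 6 passed.

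PSBQ1 (AT4G21280), a lumenal protein that stabilises water oxidation, had the smallest adjusted p of the 42 genes under mites in not-primed plants, and LHCA6 in primed plants. Its levels were 1954, 2015, 1731 and 1678 FPKM in the not-primed controls and 1179, 1265, 1253 and 1116 FPKM under mites. The groups lay far apart, with the lowest control above the highest infested library. The log2 fold change was −0.61 ± 0.06 (SE, n = 4, edgeR adjusted p = 1.11e-08), and −0.41 ± 0.06 in primed plants (n = 4, edgeR adjusted p = 4.91e-06). PSBS (AT1G44575), the heat-release protein, stood at 1146, 1141, 925 and 858 FPKM in the not-primed controls and at 684, 745, 758 and 665 FPKM under mites. These groups did not overlap either, and the log2 fold changes were −0.51 ± 0.07 in not-primed and −0.39 ± 0.07 in primed plants (n = 4, edgeR adjusted p = 2.66e-06 and 1.10e-04). The not-primed value of PSBS was −0.33 without control replicates 1 and 2 and −0.68 without replicates 3 and 4, and passed in both.

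LHCB4.3 (AT2G40100) had the lowest log2 fold change. This copy encodes a form of the minor antenna CP29 and was at 53.3, 66.6, 43.4 and 45.5 FPKM in the not-primed controls and at 26.9, 23.2, 24.7 and 17.6 FPKM under mites. Every infested library was below every control, with a log2 fold change of −1.17 ± 0.15 (n = 4, edgeR adjusted p = 4.40e-07). Primed plants went from 43.3, 40.3, 34.3 and 31.5 FPKM to 23.0, 27.0, 17.4 and 24.6 FPKM, a log2 fold change of −0.71 ± 0.15 (n = 4, edgeR adjusted p = 3.82e-04). The abundant copies LHCB4.1 and LHCB4.2 fell by 0.19 and 0.25 on the log2 scale in not-primed plants, and the level of LHCB4.3 over LHCB4.1 within a library went from 0.0216 to 0.0109.

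Among the antenna genes of photosystem I, the weakly expressed pair fell most. LHCA6 (AT1G19150) was at 171, 179, 149 and 147 FPKM in the not-primed controls and at 106, 118, 115 and 94.9 FPKM under mites, without overlap (log2 fold change −0.57 ± 0.07, n = 4, edgeR adjusted p = 3.08e-07). LHCA5, which like LHCA6 links photosystem I to the NADH dehydrogenase-like complex, changed by −0.46 ± 0.06 (n = 4, edgeR adjusted p = 9.56e-07). LHCA1 to LHCA4, the main antenna of photosystem I, lay between −0.17 and −0.14. Of the photosystem I subunits PSAN, on the plastocyanin docking side, fell most, by 0.41 on the log2 scale, and PSAE2 was highest at 0.03 ± 0.05 (n = 4, edgeR adjusted p = 0.62).

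In the main trimer antenna, LHCB1.3 (AT1G29930) was at 12402, 11454, 10797 and 10467 FPKM in the not-primed controls and at 8818, 9273, 9792 and 9393 FPKM under mites. The groups did not overlap, and the log2 fold change was −0.27 ± 0.06 (n = 4, edgeR adjusted p = 6.42e-04). LHCB1.5 (AT2G34420) did not pass the test, at 8119, 8215, 7805 and 7814 FPKM in controls and 8213, 8218, 8324 and 7952 FPKM under mites (0.04 ± 0.05, n = 4, edgeR adjusted p = 0.59). LHCB1.2, LHCB1.4 and LHCB3 did not pass either. The LHCB1 copies share some coding sequence, between 2.41% and 7.66% of the 100-base windows of each, so that some of their reads could be counted for another copy. The same holds for LHCB2.1 and LHCB2.2, which share 8.89% and 10.9% of their windows.

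Related genes were taken from lists made with earlier results of these data known, and their counts stand beside the 24.9% of all tested genes that fell and the 26.5% that rose under mites in not-primed plants. Of 18 chlorophyll synthesis genes 15 fell and 1 rose in not-primed plants, with GUN4, a cofactor of magnesium chelatase, at −0.79 and PORC, a protochlorophyllide reductase, at 0.14. Of 13 electron transport and ATP synthase genes 11 fell, among them FD2, the main leaf ferredoxin, at −0.86. Of 22 assembly and regulation genes 17 fell, with HCF136, a photosystem II assembly factor, at −0.66. GLK1, which encodes a transcription factor for many antenna genes, rose by 0.40. Of 11 chlorophyll breakdown genes 5 rose and 3 fell, a share of falls near that of all tested genes, with CLH1 at 2.99 and HCAR at −0.99. All plastid genes together took between 0.0220% and 0.0401% of the counts of a library, a small part of the reads. Whether these reads follow the level of plastid RNA was not tested. Of 7 plastid-encoded subunits tested 6 fell in not-primed plants and 0 of 7 passed in primed plants, where 23.5% of all tested genes fell. The green leaf markers RBCS1A, RBCS1B, RCA and CA1 fell with them in not-primed plants, 4 of 4, between −1.29 and −0.50. The morning clock genes LHY and CCA1 fell as well (−0.88 and −0.68). Counts over the clock list are not given here, so that LHY and CCA1 do not stand for the clock. The phloem gene SUC2 was higher by 0.60 and the guard cell gene KAT1 lower by 0.48 on the log2 scale. These are single genes of lists that also held APL for phloem, FAMA and MYB60 for guard cells, and ATML1 and PDF1 for epidermis. The values of those other genes are not given here, so that SUC2 and KAT1 do not stand for a cell type. The part of these markers in the result was not tested.

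Caterpillars left the set near its control level. In not-primed plants 6 of 42 rose and 2 fell, where 14.2% of all tested genes rose and 13.6% fell, so that the share of rises among the 42 genes was near the background. The median log2 fold change was −0.00. In primed plants 3 rose and 3 fell, where 12.1% and 11.8% of all tested genes did, and the median was 0.01. LHCB1.4, LHCB2.3 and PSBQ2 rose in both kinds of plant (50% of the 6 and 100% of the 3) and PSBQ1 fell in both. In not-primed plants LHCB3, PSAD2 and PSAE2 also rose and LHCB4.3 fell, and in primed plants PSBR and PSBS fell. The PSBR call was kept in 4 of 18 alternatives and the PSBS call in 7 of 18. The not-primed calls of PSAD2, LHCB4.3 and PSAE2 were kept in 11, 14 and 15 of 20 alternatives. The not-primed count depended on the controls, with 4 higher and 0 lower without control replicates 1 and 2, and 3 higher and 13 lower without replicates 3 and 4. Leaving out a single control gave 5 higher and 0 lower without replicate 1, 6 and 0 without replicate 2, 4 and 6 without replicate 3, and 4 and 7 without replicate 4. Leaving out replicate 1 or 3 of the not-primed caterpillar group gave 6 higher and 0 lower. The primed count was 3 without replicate 2 of the primed controls or replicate 3 of the primed caterpillar group. Scaling by library totals alone gave 6 higher and 8 lower in not-primed plants, and size factors by the median ratio gave 4 higher and 1 lower in primed plants.

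LHCB1.4 (AT2G34430) had the highest log2 fold change under caterpillars. It was at 604, 544, 671 and 708 FPKM in the not-primed controls and at 830, 948, 850 and 874 FPKM under caterpillars. Every infested library was above every control, with a log2 fold change of 0.48 ± 0.09 (n = 4, edgeR adjusted p = 2.90e-04), and the same contrast in primed plants also gave 0.48 ± 0.09 (n = 4, edgeR adjusted p = 3.30e-04). LHCB2.3 (AT3G27690), a minor copy of the other trimer protein, was at 1032, 972, 1193 and 1136 FPKM in the not-primed controls, at 1238, 1458, 1194 and 1348 FPKM under caterpillars and at 789, 839, 848 and 805 FPKM under mites. Its 3 groups did not overlap, with mites well below the controls and the lowest caterpillar library just above the highest control. The log2 fold changes against controls were 0.28 ± 0.07 under caterpillars and −0.40 ± 0.07 under mites (n = 4, edgeR adjusted p = 5.24e-03 and 7.00e-05), and these contrasts share their control libraries. Without not-primed control replicates 1 and 2 its caterpillar value was 0.17 and did not pass (edgeR adjusted p = 0.18). In primed plants it was 0.24, and the call was lost without replicate 4 of the primed caterpillar group (0.17) or replicate 2 of the primed controls (0.23).

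The paralogous PSBQ genes were also set against each other within each library. PSBQ2 (AT4G05180) was at 1374, 1407, 1350 and 1370 FPKM in the not-primed controls and at 1520, 1702, 1443 and 1567 FPKM under caterpillars, and rose by 0.19 ± 0.05 on the log2 scale (n = 4, edgeR adjusted p = 3.34e-03). PSBQ1 fell by 0.18 on that scale in the same plants, with groups that overlapped (n = 4, edgeR adjusted p = 0.026). That call was kept in 13 of 20 alternatives. The value was −0.07 without control replicates 1 and 2 (edgeR adjusted p = 0.53) and −0.31 without replicates 3 and 4 (edgeR adjusted p = 3.67e-04), and the call was also lost without control replicate 1 or 2, or without replicate 1 or 3 of the caterpillar group. The level of PSBQ1 over PSBQ2 within a library, which does not depend on scaling between libraries, was 1.34 in not-primed controls (1.22 to 1.43), 1.04 under caterpillars (0.991 to 1.07) and 0.924 under mites (0.855 to 0.981). In primed plants the ratio was 1.16 in controls, 0.890 under caterpillars and 0.866 under mites. Each infested group lay wholly below its controls. Exact 2-sided permutation tests of 4 against 4 libraries gave p = 0.0286 for each of these 4 contrasts, the smallest value this design allows, and the p adjusted over all 72 ratio tests was 0.0502, so that none of the 4 passed.

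The same ratio was taken for the other subunits with 2 copies, PSBO, PSAD, PSAE and PSAH. PSAE1 over PSAE2 went from 4.43 in not-primed controls to 3.64 under mites and 3.84 under caterpillars, without overlap. PSBO1 over PSBO2 was 2.27 in not-primed controls and 2.42 under mites, also without overlap. With 3 antenna pairs picked after their values were seen (LHCB1.4 over LHCB1.5, LHCB2.3 over LHCB2.1, LHCB4.3 over LHCB4.1), 72 such tests were made over 9 contrasts. In 41 of them the groups did not overlap, at exact p = 0.0286 each, and the adjusted p over the 72 was 0.0502, so that 0 of the ratio tests passed the threshold. The share without overlap among ratios of other gene pairs was not taken, so that the 41 has no background beside it. The 9 contrasts also share libraries, so that the tests are not independent of each other.

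**Figure D2:**
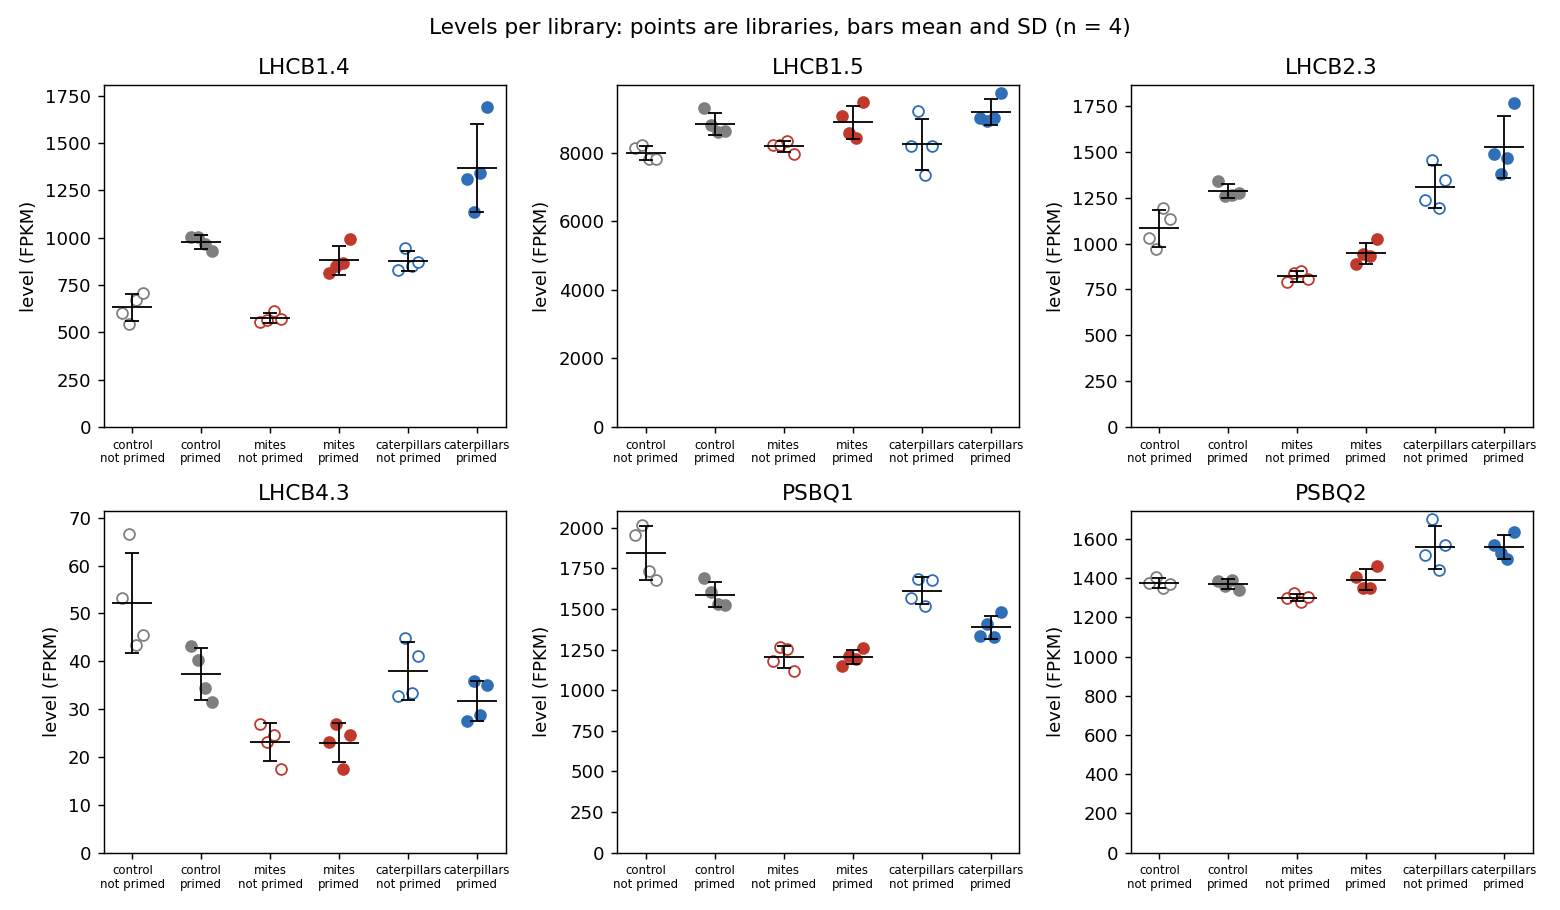
Level in FPKM per library (y axis, from 0) of 6 genes in the 6 groups (x axis); open points are not-primed and filled points primed plants, and bars give the mean and SD (n = 4). LHCB1.4 in primed plants lies above its not-primed group in every infestation state, and PSBQ1 is lower under both pests while PSBQ2 is highest under caterpillars.

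Plants with the different pests were also compared directly. In not-primed plants 38 of 42 genes were higher under caterpillars than under mites and 0 were lower, where 13.7% of all tested genes were higher and 11.9% lower, and the median log2 difference was 0.22. All 6 LHCA genes, 12 of 14 LHCB genes, all 10 photosystem II subunits and 10 of 12 photosystem I subunits were higher. In primed plants 25 of 42 were higher and 0 lower, where 10.5% of all tested genes were higher and 11.5% lower, and the median was 0.17. There 11 of 14 LHCB genes passed, and 3 of 10 photosystem II subunits. The primed count fell to 9 without replicate 4 of the primed caterpillar group, to 10 without replicate 3 of the primed mite group and to 13 without replicate 2 of that group. LHCB2.3 differed most in primed plants, at 1488, 1381, 1468 and 1767 FPKM under caterpillars against 889, 941, 934 and 1026 FPKM under mites, with no overlap (0.69 ± 0.07, n = 4, edgeR adjusted p = 3.58e-07). LHCB4.3 differed most in not-primed plants (0.73 ± 0.15, n = 4, edgeR adjusted p = 7.94e-04).

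The seed treatment moved few of the 42 genes in uninfested plants. There 6 were higher and 2 lower in primed controls, where 7.44% of all tested genes were higher and 7.35% lower, and the median log2 difference was 0.00. The 6 were LHCB1.4, LHCB1.5, LHCB2.1, LHCB2.2, LHCB2.3 and LHCB4.2, all of the photosystem II antenna, and LHCB4.3 and PSBQ1 were lower. The LHCB median was 0.10, against −0.03 for photosystem II and −0.04 for photosystem I subunits. The LHCA antenna had no call but also took more of summed FPKM in primed controls, 2.43% ± 0.03 against 2.25% ± 0.04 (SD, n = 4). The LHCB antenna took 9.13% ± 0.24 against 8.30% ± 0.10. Without not-primed control replicates 1 and 2 only LHCB1.4 passed, without replicates 3 and 4 the split was 2 higher and 11 lower, and size factors by the median ratio gave 3 higher and 3 lower. Without replicate 3 or 4 alone of the not-primed controls the split was 3 higher and 4 or 5 lower. Leaving out any 1 of the not-primed control replicates 1 and 2 or of the primed control replicate 4 left 2 genes, and leaving out primed control replicates 1, 2 or 3 left 3 to 4. Under mites 1 gene was higher and 0 lower, where 3.54% of all tested genes were higher and 2.82% lower, and 2 were higher without replicate 4 of the not-primed mite group. Under caterpillars 1 was higher and 2, PSBQ1 and PSBS, were lower, where 3.99% and 4.16% of all tested genes were, and scaling by library totals alone gave 6 higher and 1 lower. Of these 3 calls under the main scaling, the count fell to 1 without replicate 4 of the not-primed caterpillar group or without replicate 1 or 3 of the primed one, and the split was 4 higher and 0 lower without replicate 2 of the not-primed caterpillar group.

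The gene that was higher in primed plants in every state was LHCB1.4. In controls it was at 604, 544, 671 and 708 FPKM in not-primed and 1006, 1003, 966 and 931 FPKM in primed plants. Under mites it was at 553, 566, 611 and 573 FPKM in not-primed and 812, 850, 864 and 994 FPKM in primed plants. Under caterpillars it was at 830, 948, 850 and 874 FPKM in not-primed and 1308, 1138, 1341 and 1693 FPKM in primed plants. In none of the 3 states did primed and not-primed libraries overlap. The log2 differences were 0.65 ± 0.09, 0.61 ± 0.09 and 0.65 ± 0.09 (n = 4, edgeR adjusted p = 2.08e-05, 4.61e-05 and 3.41e-05), and the call held in each alternative run. The share of LHCB1.4 in the summed FPKM of the 5 LHCB1 copies was 2.25% ± 0.35 (SD, n = 4) in the controls that were not primed and 3.27% ± 0.10 in the primed ones. Under caterpillars it was 2.96% ± 0.15 and 4.18% ± 0.45 in the same order. Its neighbour LHCB1.5 passed in controls, at 7988 ± 210 FPKM against 8827 ± 325 FPKM (SD, n = 4; log2 difference 0.17 ± 0.05, edgeR adjusted p = 0.039), and had 0.12 ± 0.05 under mites and 0.16 ± 0.05 under caterpillars, which did not pass. The level of LHCB1.4 over LHCB1.5 was 0.0793 in not-primed and 0.111 in primed controls, without overlap.

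**Figure D3:**
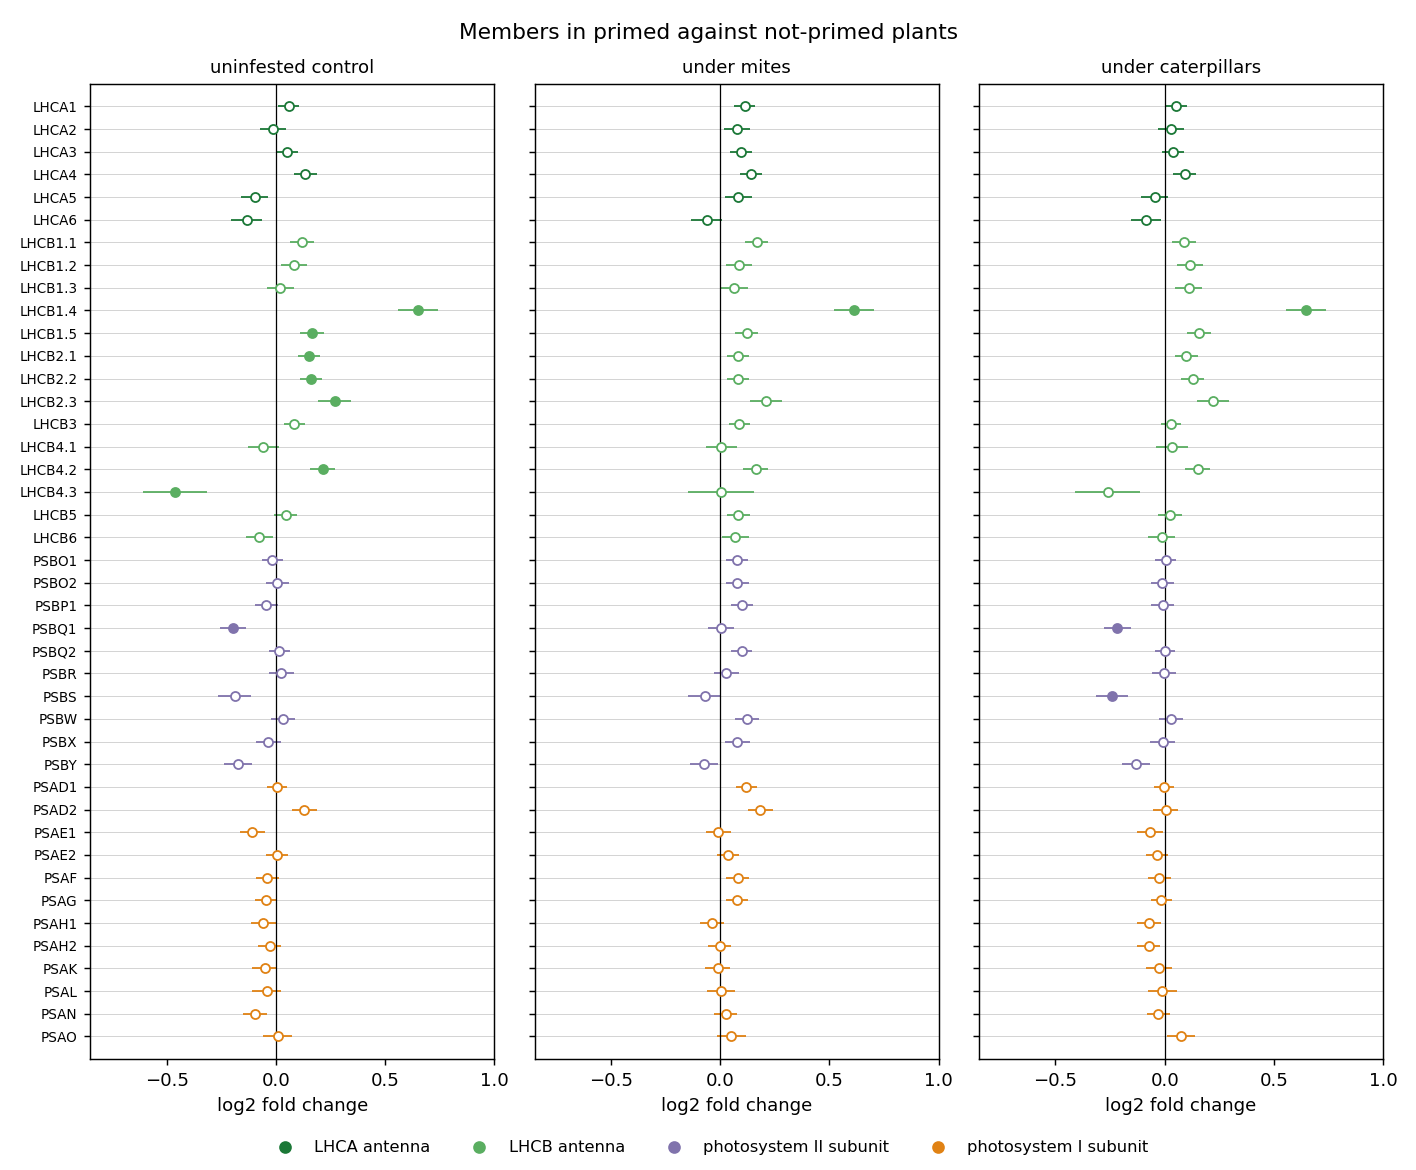
Log2 difference of primed against not-primed plants (x axis) for the 42 genes (y axis) in the 3 infestation states; bars are standard errors (n = 4 libraries a group), filled points passed the adjusted p. LHCB1.4 stands at 0.65, 0.61 and 0.65, and most other points lie near 0.

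Whether the seed treatment changed the response to a pest was tested with interaction terms. The 42 genes gave 0 calls for mites, for caterpillars and for the difference between the pests, where 1.1%, 0% and 0.00998% of all tested genes were called by edgeR. At an unadjusted p under 0.05, 2, 0 and 2 of the 42 passed, and DESeq2 and limma gave 0 calls in each. The smallest adjusted p was 0.27, for PSBQ1 in the mite interaction (0.20 ± 0.09). LHCB4.3 had the largest mite interaction at 0.46 ± 0.21 (edgeR adjusted p = 0.30). Without not-primed control replicates 3 and 4 the mite interaction gave 8 calls, all higher, and without replicates 1 and 2 it gave 0. For LHCB1.4 the mite interaction was −0.03 ± 0.13 and the caterpillar interaction −0.00 ± 0.13.

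The classes were set against each other within each library, as ratios of summed FPKM. Over the photosystem I subunits, the LHCB antenna stood at 2.16, 2.12, 2.25 and 2.24 in not-primed controls and at 2.43, 2.38, 2.37 and 2.40 in primed controls. Under mites the ratio was 2.31, 2.26, 2.36 and 2.26 in not-primed and 2.39, 2.40, 2.37 and 2.44 in primed plants, and under caterpillars 2.37, 2.31, 2.25 and 2.32 against 2.53, 2.48, 2.48 and 2.60. Primed libraries were above not-primed ones in each state, without overlap. In not-primed plants under mites and in primed plants under caterpillars, every library was also above its controls. The LHCA antenna over the photosystem I subunits stood at 0.585 to 0.601 in not-primed and 0.633 to 0.644 in primed controls, without overlap. Under caterpillars it was 0.607 to 0.618 against 0.634 to 0.663, also without overlap. Under mites it was 0.590 to 0.641 against 0.638 to 0.661, with overlap. The ratio of photosystem II to photosystem I subunits was 0.946 to 0.959 in not-primed controls, 0.953 to 0.964 in primed controls, and lay between 0.890 and 0.937 in all infested libraries, below every control. Each sum gives most weight to the strongest genes of its class, so that a ratio need not describe every gene of a class. By mean FPKM these were LHCB1.3 and LHCB1.5 (11004 and 8546), LHCA4 and LHCA1 (5081 and 4173), and PSBR (5449) for photosystem II. These ratios are descriptions and were given no test.

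**Figure D4:**
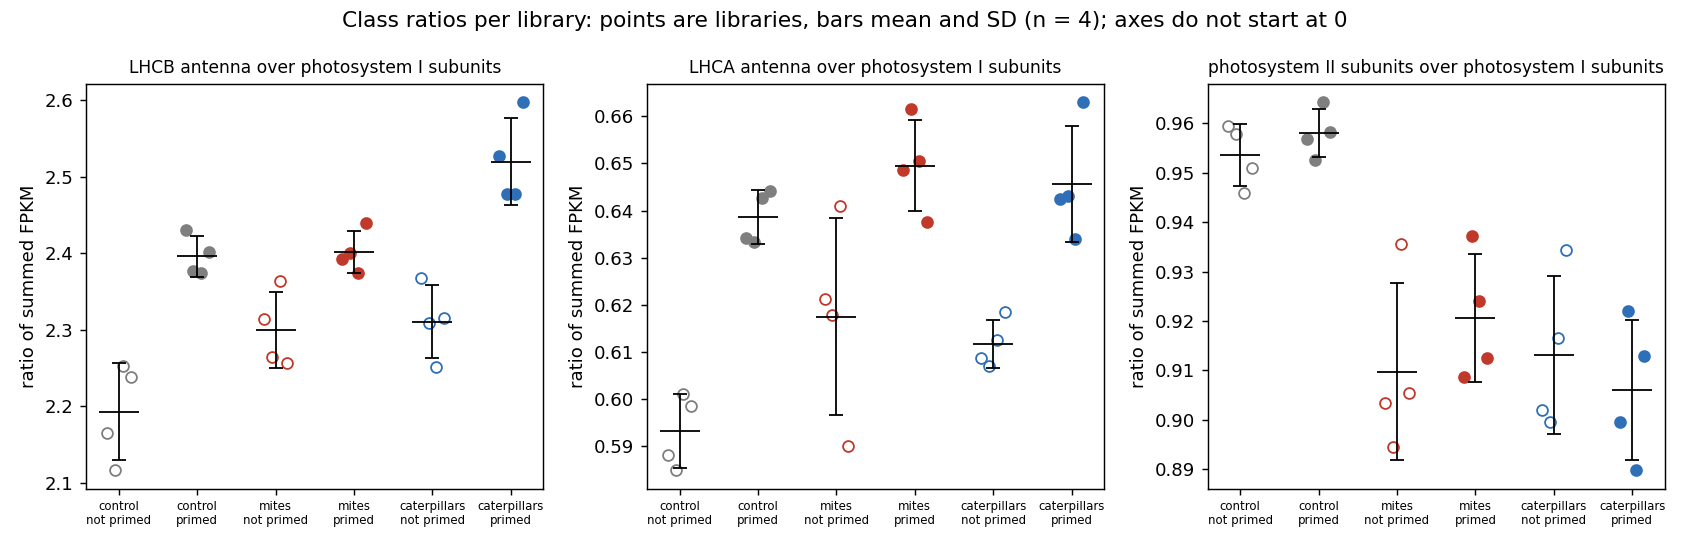
Summed FPKM of the LHCB antenna, the LHCA antenna and the photosystem II subunits over that of the photosystem I subunits (y axes, not from 0), per library in the 6 groups (x axis); bars give the mean and SD (n = 4). The LHCB ratio is 2.19 in controls without priming against 2.40 with it, and the LHCA ratio is 0.593 against 0.639. The photosystem II ratio is 0.954 and 0.958 in controls against 0.906 to 0.921 in infested groups.

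In all, the 42 genes took 17.9% ± 0.30 of summed FPKM (SD, n = 4) in controls that were not primed and 19.0% ± 0.39 in primed ones. Under mites the share was 16.2% ± 0.33 and 17.1% ± 0.51, and under caterpillars 18.1% ± 0.60 and 19.1% ± 0.73. The mite-infested libraries of each kind of plant lay below their own controls. Total counts in the mite groups were 18868846 to 27986799 and overlapped those of the controls, and the part of depth in these shares was not tested.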

How the data were processed

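The 42 genes, the related gene lists and the tests were chosen with earlier results of these data known. The 12 genes examined library by library or followed in every contrast, and the 3 antenna pairs, were chosen after their values were seen. Reads were aligned with HISAT2 to TAIR10, per the submitters' processing notes. The versions, the counting tool, the annotation and the use of strand were not given in the sources used here. The deposited table holds raw counts per gene, and the deposited FPKM values are counts scaled by the authors per gene length and library, as checked on the files.

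Counts were tested with edgeR 4.0.16 in R 4.3.3 (TMM, filterByExpr, quasi-likelihood, 2-sided, 6 group means over all 24 libraries, no replicate term, 12 contrasts), with Benjamini-Hochberg adjustment over the 20038 genes tested. SE is the log2 fold change over the root of the F statistic. Alternatives were RLE size factors (median ratio), library totals alone, no filter, DESeq2 1.42.0, limma 3.58.1 on log2(FPKM + 1) or with 0.1 added, LHCB1.1 to LHCB1.3 summed, the groups of a contrast alone, a replicate block and left-out libraries. Besides members called, the rule for named genes took those with the smallest adjusted p or largest change in a class and a fixed gene of each class.

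Tested on simulated data for mites against controls in not-primed plants (19826 genes), edgeR recovered 94% of genes altered 1.5-fold and 52% of those altered 1.25-fold and called 8 unaltered genes. The labels do not say that replicate numbers pair the samples. Of 36 same-numbered pairs 2 correlated above 0.1, and in 13 of 36 the same number was the best partner. For caterpillars against mites this was so for each replicate of primed plants and for no replicate of not-primed plants. Low correlations do not exclude pairing, and counts with a replicate block are given below.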

Additional observations from a re-analysis of the deposited data

Results flagged for a closer look

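In groups of 4 libraries, a value was set apart when its gap to the nearest library exceeded Dixon's critical value (0.829 of the range). This was tested in 102 groups, where chance sets apart about 1 in 20, and 5 were found, all for replicate 4 of the primed caterpillar group as the highest library. It had 9732 FPKM of LHCB1.5 and 148 FPKM of LHCA6. Its share of summed FPKM was 20.2% for all 42 genes, 2.59% for the LHCA antenna and 10.2% for the LHCB antenna. These 5 values come from the same library and are not independent of each other. No interaction passed the test for any of the 42 genes.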

How the results depend on the processing

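No named gene changed direction past the threshold, but the balance of calls did change direction with the not-primed controls. Without controls 3 and 4, primed against not-primed controls went from 6 higher and 2 lower to 2 higher and 11 lower. Caterpillars against controls in not-primed plants went from 6 higher and 2 lower to 3 higher and 13 lower. The counts below are genes called of 42. For mites, primed plants gave 16 with limma on FPKM without a filter. For caterpillars against controls, not-primed plants gave 14 with library totals alone, 3 with the groups of the contrast alone, 4 with limma without a filter, 4 without not-primed controls 1 and 2 and 16 without controls 3 and 4, and primed plants gave 10 with DESeq2. For caterpillars against mites, limma without a filter gave 21 in not-primed and 14 in primed plants. For primed against not-primed controls, no filter gave 5, the groups alone 3, limma without a filter 3, leaving out controls 1 and 2 gave 1 and leaving out 3 and 4 gave 13. Under mites that contrast gave 5 with library totals, 3 with DESeq2 and 2 with the groups alone, and under caterpillars 7, 5 with DESeq2 and 1 with limma without a filter. The mite interaction gave 8 without controls 3 and 4. The cause was not tested.

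Leaving out 1 library at a time gave 30 to 36 (mites, not primed), 16 to 21 (mites, primed), 5 to 11 and 3 to 5 (caterpillars), 30 to 38 and 9 to 25 (caterpillars against mites), and 2 to 8, 1 to 2 and 1 to 4 (primed against not primed in controls, under mites and under caterpillars). The interactions stayed at 0. With the replicate block the counts were 34 and 25 (mites), 8 and 5 (caterpillars), 38 and 25 (caterpillars against mites), each for not-primed and primed plants in turn, then 7, 1 and 3 (primed against not primed) and 0 in the interactions. It changed no count by over 1.5 times.

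The copy ratio tests gave 0 calls when adjusted over all 72. Adjusting the 27 antenna tests apart, tried after seeing the data, gave 18 calls (adjusted p = 0.0429), and the 45 subunit tests apart gave 0 (0.0559). Since the antenna pairs were picked for their values, those 18 are not used. Over values of named genes, other settings ended 106 calls and left-out libraries 145, while 30 and 11 were gained; LHCB1.4 in primed against not-primed plants passed in each alternative. LHCB4.3 had the fewest counts of the 42 genes, as few as 536 in a library.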
